A study of Macaca mulatta with 5 samples.

Results

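Domain boundaries with the highest strength scores were followed in Hi-C maps of cortical neurons from rhesus monkeys (Macaca mulatta) given morphine or saline. A boundary was taken where 1 topologically associating domain (TAD, a stretch of chromosome in which contacts are frequent) ended and the next began. The authors' deposited domain lists give a strength score at each end of a domain, and boundaries were chosen by that score: those at 1.0 or more were called strong. The saline map held 301 strong boundaries among 1219 and the morphine map 267 among 1265. The lists were kept apart, and boundaries of the maps were matched where their midpoints lay within 40 kb.

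Hi-C joins DNA ends that lay close together in fixed, enzyme-cut chromatin, so that sequenced read pairs report contacts. The saline group is described by 2 libraries and the morphine group by 3, each group from 2 male monkeys of 3 to 4 years, and the labels do not say which monkey gave which library. Morphine, an opioid, was injected subcutaneously 3 times a day for 90 days, with the dose raised in steps through 3, 6, 9 and 12 to 15 mg/kg, and the control animals received saline (0.5 mL/kg) on the same schedule. The neurons were purified from cortex by a method that the labels do not give. Each group had 1 deposited domain list, without values of single libraries, so no difference between the maps has a replicate check or a test. All intervals are 95% intervals over boundaries or loops within a map and do not cover the spread between monkeys.

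Boundaries partition chromosomes into neighbourhoods within which enhancers and promoters meet more readily. In mammalian cells many boundaries carry sites bound by the insulator protein CTCF, at which the cohesin complex, extruding a loop of chromatin, tends to stop. Loops called in Hi-C maps often have their anchors (the paired loci) at such sites, and a strong boundary is one across which few contacts pass. The files give positions in 40 kb bins of a rhesus assembly that is not named, so no boundary was assigned to a gene or to a CTCF site, and no sequence is shown. The labelled cell type was not checked against markers, since no expression values were used here.

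The scores fell off steeply above the threshold. The median score was 1.30 among strong saline boundaries (quartiles 1.13 and 1.73) and 1.32 among strong morphine boundaries (1.11 and 1.74), against 0.577 and 0.572 among the weaker ones of these maps. Scores of 2.0 or more were held by 49 saline and 41 morphine boundaries, and scores of 3.0 or more by 14 and 12. The threshold cuts through a continuous range, with 33 strong and 35 weaker saline boundaries, and 32 of each in the morphine map, within 0.05 of it. The lowest strong saline boundary scored 1.00019, on chromosome 5 at 29840001 to 29880000, and the highest weaker one 0.99945, on chromosome 20 at 8400001 to 8440000. In the morphine map the lowest strong boundary scored 1.00025 and the highest weaker one 0.99869. These scores chose the boundaries and were not tested.

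The same 5 bins held the highest 5 scores of both maps. The highest lay on chromosome 2 at 152920001 to 152960000, with a score of 7.54 in the saline and 7.17 in the morphine map. A second bin on chromosome 2, at 146560001 to 146600000, scored 5.47 and 5.45. On chromosome 3 the bin at 127960001 to 128000000 scored 5.62 in the saline and 4.70 in the morphine map, and the bin at 123320001 to 123360000 scored 4.44 and 4.73. On chromosome 10 the bin at 58960001 to 59000000 scored 5.36 and 4.65. These 5 bins stood apart from the bulk of the strong boundaries, and their order, but not their identity, differed between the maps. The assembly behind the coordinates is not named, and its part in these scores was not tested. Among the 10 strongest boundaries of each map 8 were shared, among the 50 strongest 42, and among the 100 strongest 79.

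Loops at these 5 bins varied from bin to bin. Anchors within 40 kb numbered 4 in the saline and 3 in the morphine map over all 5, and the chromosome 10 bin alone was crossed. The strongest bin of chromosome 2 had no anchor within 40 kb and no loop across it in either map. At 146560001 on chromosome 2, a loop of the saline map left the boundary and joined 146610001 to 146620000 with 148090001 to 148100000, thereby spanning the next domain of 1.48 Mb from end to end. It had 16 contacts, 8.01-fold the number expected from the donut of surrounding pixels (exact Poisson interval 4.58 to 13.0), and was not found in the morphine map. At 123320001 on chromosome 3, a loop of 2830 kb joined the boundary bin with 126150001 to 126160000 in both maps, with 12 contacts in the saline and 32 in the morphine map. The donut background expected 0.0951 and 0.688 contacts there. The chromosome 10 bin had no anchor within 40 kb and was crossed by 2 loops in each map. One joined 58845001 to 58850000 with 59065001 to 59070000 in both maps, with 17 contacts in the saline (49.6-fold, 28.9 to 79.5) and 34 in the morphine map (26.2-fold, 18.2 to 36.6). The other went the opposite way in enrichment. In the saline map it joined 58900001 to 58905000 with 59050001 to 59055000 (18 contacts, 35.9-fold, 21.3 to 56.7). In the morphine map it joined 58895001 to 58900000 with 59055001 to 59060000 (30 contacts, 106.6-fold, 71.9 to 152.2).

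Strong boundaries were found again in the other map more often than weaker ones, and the share rose with the score. Of the 301 strong saline boundaries, 214 had a morphine boundary within 40 kb (71.1%, exact Clopper-Pearson interval 65.6 to 76.2), and of the 267 strong morphine boundaries 192 had a saline one (71.9%, 66.1 to 77.2). Over all boundaries the shares were 54.0% and 52.0%. The strong share exceeded the weaker share by 22.7 percentage points in the saline map (Newcombe interval 16.5 to 28.5) and by 25.2 points in the morphine map (18.8 to 31.1). That shared boundaries score higher was known from earlier results of these lists, so the excess is no separate finding. Within the strong boundaries, the matched share was 62.0% of 192 saline boundaries scored 1.0 to 1.5, 81.7% of 60 scored 1.5 to 2.0 and 93.9% of 49 scored 2.0 or more (83.1 to 98.7). The morphine map gave 61.8%, 84.9% and 97.6% for the same classes. Exact agreement of the bin rose with the score as well, from 29.7% of the lowest strong class to 63.3% of the highest in the saline map and from 26.6% to 70.7% in the morphine map. Over all boundaries these shares were 23.2% in the saline and 22.4% in the morphine map.

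**Figure D1:**
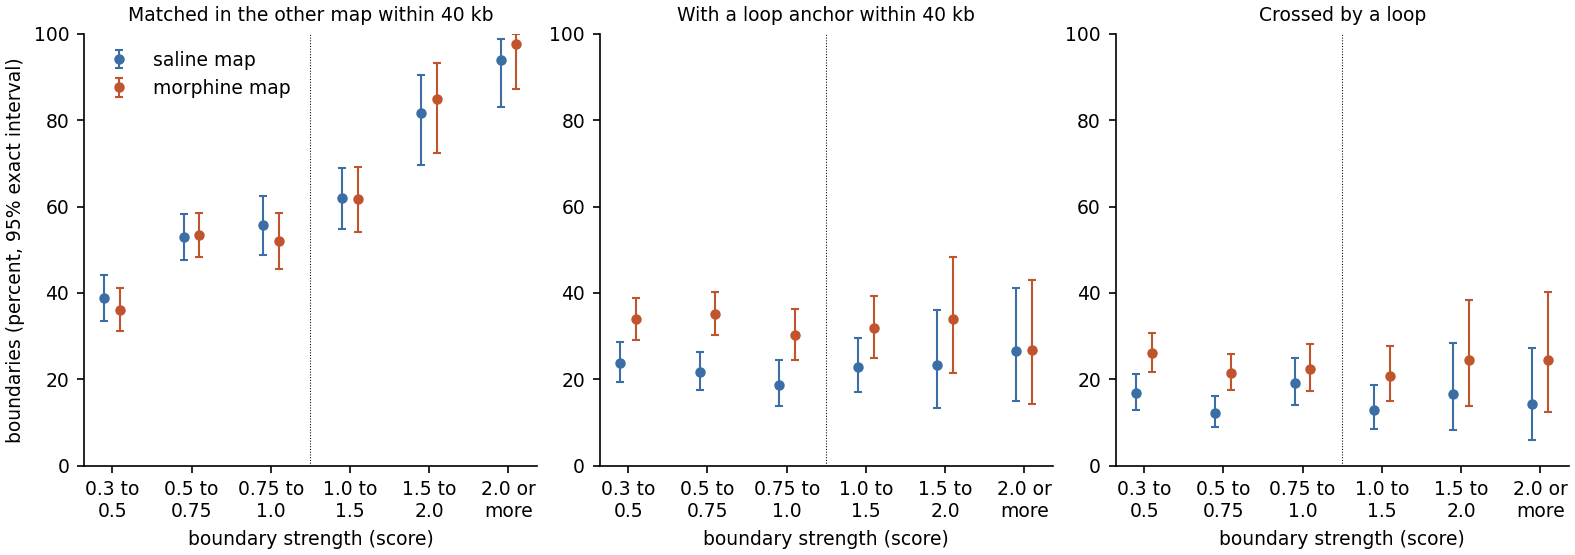
Share of boundaries (percent, with 95% exact Clopper-Pearson intervals) by strength class (score), for the saline and the morphine map; strong boundaries lie right of the dotted line. The matched share climbs to 93.9% and 97.6% at scores of 2.0 or more, while the intervals of the shares with a loop anchor within 40 kb overlap across the classes of each map, as do those of the shares crossed by a loop.

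Most strong boundaries that matched were strong in both maps. A morphine score of 1.0 or more was held by 174 of the 301 strong saline boundaries (57.8%, 52.0 to 63.4), and the same 174 pairs made up 65.2% of the 267 strong morphine boundaries (59.1 to 70.9). Over all saline boundaries 15.8% had a strong morphine boundary within 40 kb, and over all morphine boundaries 16.9% had a strong saline one. Counting each shared pair once, the maps held 394 strong positions. At 40 matched saline boundaries the morphine score was under 1.0, ranging from 0.574 to 0.995 (median 0.903), and at 18 matched morphine boundaries the saline score was, ranging from 0.509 to 0.992 (median 0.889). At the 174 pairs strong in both, 92 lay in the same bin (52.9%, 45.2 to 60.5), while the morphine boundary lay 40 kb before the saline one in 45 and 40 kb after it in 37. Of all 658 matched pairs, 283 lay in the same bin.

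At matched strong boundaries the morphine score was more often the lower one. These are the scores by which the pairs were chosen, so the shares are a description and no test. A boundary chosen for a high score in 1 map tends to score lower in any other, so the comparison is given for each choice. Among the 214 pairs chosen in the saline map, 156 scored lower in the morphine map (72.9%, 66.4 to 78.7), with a median difference of -0.11 (morphine minus saline, exact order-statistic interval -0.14 to -0.07). Among the 192 pairs chosen in the morphine map, 116 scored lower in the morphine map (60.4%, 53.1 to 67.4), with a median difference of -0.04 (-0.08 to -0.02). At the 174 pairs strong in both, the same 116 scored lower (66.7%, 59.1 to 73.6). The 40 pairs strong in the saline map alone were lower in the morphine map by the rule itself. By the same rule the 18 pairs strong in the morphine map alone were higher there. The shares of 72.9%, 60.4% and 66.7% are therefore not separate results. At 200 pairs whose mean of both scores reached 1.0, 136 scored lower (68.0%, 61.0 to 74.4). Over all 658 matched boundaries the share was 58.5%, and at the 426 pairs strong in neither map it was 53.8% (48.9 to 58.6). The scores have no stated scale, and the called loops of the morphine map held 239042 contacts against 119909. Whether depth plays a part in the lower scores was not tested.

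**Figure D2:**
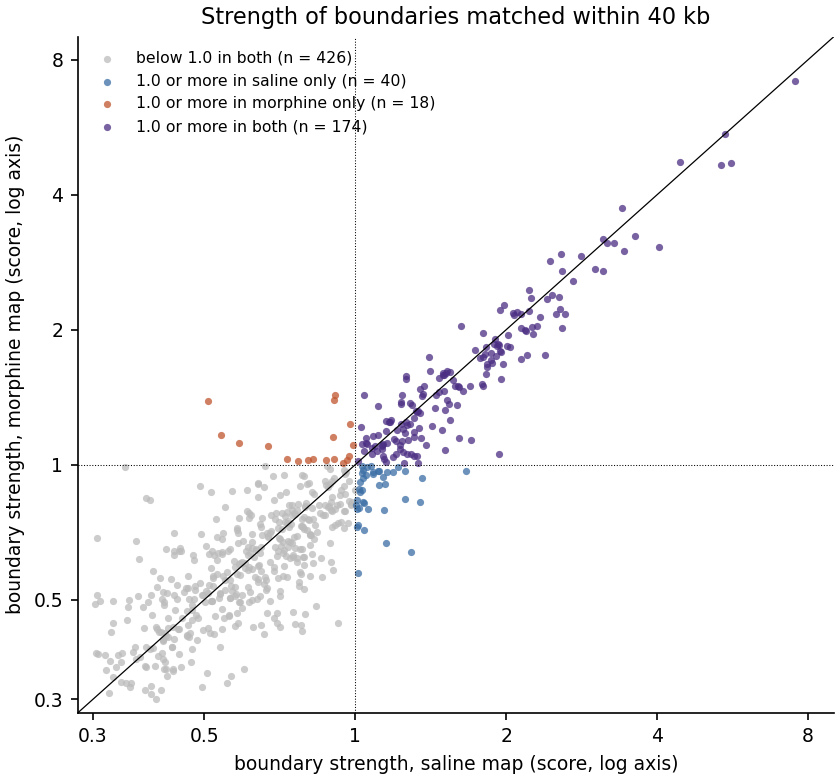
Strength score in the saline map (horizontal, log axis) and in the morphine map (vertical, log axis) for the 658 boundaries matched within 40 kb, 1 point each; dotted lines mark 1.0 and the solid line equal scores. The 174 pairs strong in both maps follow the line of equal scores up to 7.54 and 7.17, with 116 of them below it.

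Single boundaries differed by up to 0.97. The largest fall was at the first boundary listed on chromosome 9, at 2880001 to 2920000, where the saline score was 4.03 and the morphine score 3.06. It was followed by 127960001 on chromosome 3 (-0.91) and by a boundary on chromosome 14, at 89200001 to 89240000 in the saline and 40 kb earlier in the morphine map, with scores of 1.93 and 1.06. The largest rise was on chromosome 6, from 0.509 at 155600001 to 155640000 in the saline map to 1.39 in the next bin in the morphine map. Smaller rises lay on chromosome X at 70640001, from 0.540 to 1.16, and on chromosome 4 at 97920001, from 0.587 to 1.12. All 3 rises joined bins that were 40 kb apart, so that they compare neighbouring bins and not 1 bin with itself.

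Most strong boundaries without a match had a boundary of the other map a few bins away. Of 87 unmatched strong saline boundaries, 68 had a morphine boundary within 120 kb and 81 within 200 kb, and of 75 unmatched strong morphine boundaries, 60 had a saline boundary within 120 kb and 67 within 200 kb. Over all unmatched boundaries the shares within 200 kb were 71.3% of 561 in the saline map and 65.7% of 607 in the morphine map, against 93.1% (85.6 to 97.4) and 89.3% (80.1 to 95.3) of the strong ones. The nearest boundary within 200 kb was itself strong in 54 of the 87 and in 54 of the 75 cases, against 11.9% and 13.3% of all unmatched boundaries. The strongest unmatched saline boundary, on chromosome 18 at 43880001 to 43920000, scored 2.14, and a morphine boundary of score 1.87 lay 80 kb away at 43800001 to 43840000. Near the start of chromosome 5 the outermost boundary lay at 4320001 in the saline map (score 2.09) and at 4400001 in the morphine map (score 2.34). On chromosome 17 the morphine boundary at 41800001 to 41840000 scored 1.94, with a saline boundary of 1.48 at 120 kb. Others of the 5 strongest in the saline map lay on chromosome 5 at 186920001, chromosome 17 at 73160001 and chromosome 14 at 29240001, each with a morphine boundary of 1.34 to 1.68 at 80 or 120 kb. In the morphine map they lay on chromosome 8 at 61280001 and chromosome 13 at 61680001, with saline scores of 1.02 and 1.54 at 80 and 120 kb. None of these 10 boundaries lacked a strong counterpart within 120 kb.

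Of the strong boundaries, 4 had no boundary of the other map within 400 kb. No count at 400 kb is given for weaker boundaries, so this number cannot be set against theirs. The 4 were singled out after their values were seen. In the saline map they lay on chromosome 2 at 114400001 to 114440000 (score 1.01) and on chromosome 15 at 51600001 to 51640000 (1.17), at 760 and 800 kb from the nearest morphine boundary. In the morphine map both lay on chromosome 4, at 11120001 to 11160000 (1.02) and at 95280001 to 95320000 (1.07), at 520 and 1760 kb from the nearest saline boundary. The boundary on chromosome 15 (1.17) scored above the lower quartile of the strong saline boundaries (1.13). The boundary on chromosome 2 scored below that quartile, and both morphine boundaries scored below the lower quartile of the strong morphine boundaries (1.11).

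The share matched differed between chromosomes. On chromosomes 10, 16, 19 and 20, named in earlier results for the highest excess of morphine over saline background contacts, 40 of 41 strong saline boundaries had a morphine boundary within 40 kb (97.6%, 87.1 to 99.9). On the other chromosomes 174 of 260 did (66.9%, 60.8 to 72.6). The morphine map gave 37 of 38 (97.4%, 86.2 to 99.9) and 155 of 229 (67.7%, 61.2 to 73.7). Weaker boundaries of the same 4 chromosomes matched in 53 of 87 cases in the saline map (60.9%, 49.9 to 71.2) and in 47.1% of 831 cases elsewhere. Sharing of the very same bin was closer, at 18 of 41 strong saline boundaries on the 4 chromosomes (43.9%, 28.5 to 60.2) and 35.4% elsewhere (29.6 to 41.5). Loop anchors were also more frequent there, at 0.707 per strong saline boundary (0.474 to 1.02) against 0.265 (0.206 to 0.336) elsewhere. In the morphine map they numbered 1.11 (0.797 to 1.49) against 0.432 (0.351 to 0.526). Anchor rates at weaker boundaries of these chromosomes are not given, so the excess cannot be assigned to strong boundaries. The part of the anchors in the matching was not tested. At the other extreme in the saline map, chromosome 5 matched 6 of 13 strong boundaries, chromosome 17 matched 2 of 6, chromosome 18 matched 2 of 5 and chromosome 8 matched 8 of 17. In the morphine map the same chromosomes matched 4 of 11, 2 of 6, 0 of 3 and 9 of 15. Matched shares of their weaker boundaries are not given, so low matching there cannot be assigned to strong boundaries. No pair on chromosome 18 was strong in both maps. These chromosomes were named after their values were seen, and their counts are small.

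Counts of strong boundaries also differed between chromosomes. Over all chromosomes, 24.7% of the saline and 21.1% of the morphine boundaries were strong. Chromosomes 3 and 2 held the most, with 31 and 29 in the saline and 26 and 22 in the morphine map. As a share of its own boundaries, chromosome 13 led in the saline map with 17 of 45 (37.8%, 23.8 to 53.5) and chromosome 20 in the morphine map with 12 of 30 (interval 22.7 to 59.4). The lowest saline share was 6 of 41 on chromosome 17 (14.6%, 5.57 to 29.2), and the lowest morphine share was 3 of 27 on chromosome 18 (11.1%, 2.35 to 29.2). These are the extremes of 21 chromosomes. The interval of chromosome 20 lay above the share over all morphine boundaries. Those of chromosomes 13, 17 and 18 included the share over all boundaries of their map. Chromosome X, of which male cells carry a single copy, had 9 of 59 and 8 of 61. Neighbouring strong boundaries lay a median of 5.82 Mb apart in the saline and 5.96 Mb in the morphine map, from 0.600 to 54.5 Mb and from 0.560 to 51.8 Mb. Of the outermost boundaries of the chromosomes, 9 of 42 saline and 8 of 42 morphine ones were strong.

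**Figure D3:**
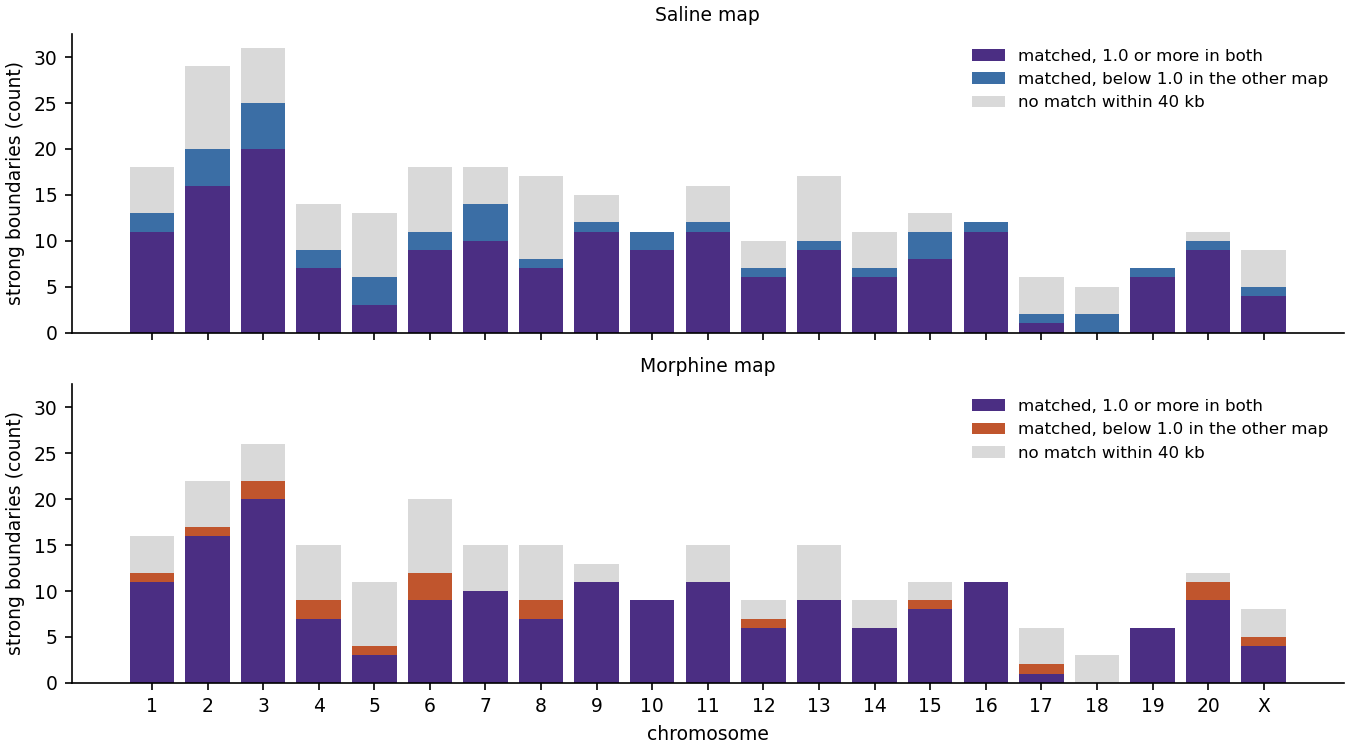
Number of strong boundaries on each chromosome in the saline map (top) and the morphine map (bottom), divided into those matched within 40 kb and strong in both maps, matched but below 1.0 in the other map, and unmatched. On chromosomes 10, 16 and 19 all strong boundaries of both maps were matched, while chromosome 5 matched 6 of 13 in the saline map.

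Domains beside strong boundaries were larger. The median size of adjoining domains was 2.36 Mb (2.28 to 2.48) at strong and 1.92 Mb (1.84 to 2.00) at weaker saline boundaries, and 2.48 Mb (2.32 to 2.56) and 1.88 Mb (1.80 to 1.92) in the morphine map. In the saline map, domains with no strong end had a median size of 1.80 Mb (692 domains), those with 1 strong end 2.28 Mb (419) and those with both ends strong 2.56 Mb (87, interval 2.36 to 2.92). The morphine map gave 1.76, 2.28 and 2.88 Mb. A domain counts at both of its ends, and size and score come from the same domain list, so this is a description of that list.

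Loop anchors were no denser at strong boundaries than at weaker ones. An anchor midpoint lay within 40 kb of 71 of the 301 strong saline boundaries (23.6%, 18.9 to 28.8) and of 84 of the 267 strong morphine boundaries (31.5%, 25.9 to 37.4). Over all boundaries the shares were 22.2% and 33.0%. The difference of strong from weaker boundaries was 1.80 percentage points in the saline map (-3.44 to 7.51) and -2.01 points in the morphine map (-8.07 to 4.46). The number of anchors gave the same picture. Strong boundaries carried 0.326 anchors each in the saline and 0.528 in the morphine map, and the ratios of strong to weaker were 1.03 (0.811 to 1.30) and 0.981 (0.809 to 1.18). An average stretch of 80 kb, the width of the window, held 0.316 anchors in the saline and 0.470 in the morphine map, and windows at domain centres held 0.363 and 0.465. The share of domain centres with an anchor was 23.3% in the saline map (20.9 to 25.8). In the morphine map it was 25.3% (22.9 to 27.8), lower than the 33.0% of all boundaries there. The morphine list held 8425 loops and the saline list 5507, so anchor counts were not compared between the maps. Loops and boundaries were called from the same contacts, so these comparisons within a map are descriptions.

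Many matched boundaries had no anchor near them in either map. Among the 174 strong in both maps, 105 had no anchor within 40 kb in either (60.3%, 52.7 to 67.7), against 56.2% of all 658 matched pairs and 55.2% of the 426 strong in neither. Of the 174, 28 had anchors in both, 10 in the saline map alone and 31 in the morphine map alone. Among all 658 matched pairs the same counts were 125, 46 and 117. The loop lists differ in size (8425 morphine and 5507 saline loops), so this split does not compare the maps. No strong saline boundary had more than 3 anchors and no strong morphine boundary more than 4, while weaker boundaries reached 5 and 6. Among strong saline boundaries 6 had 3 anchors, and the 3 of these with the highest scores are named. At 30200001 on chromosome 16 the saline score was 2.07 and at 31960001 on chromosome 19 it was 1.33, and both bins matched a strong morphine bin exactly. The chromosome 19 bin also ranked among the first 3 of the morphine map, with 4 anchors. A short loop there, of 45 kb in the saline and 35 kb in the morphine map, had both ends in the window and counts at both. The morphine loops at this bin were 2.14- to 4.56-fold over the donut background. The highest FDR (q-value of the loop caller) of each lay between 0.109 and 0.361.

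The saline boundary at 55880001 to 55920000 on chromosome 16 (score 3.18) was the strongest with 3 anchors, all of them right ends of loops. A loop from 53440001 to 53450000 reached it over 2420 kb with 189 contacts against 4.45 expected (42.4-fold, 36.6 to 48.9). A second, from 53470001 to 53480000, had 35 contacts (6.03-fold, 4.20 to 8.39), and another, much shorter, had 20 contacts. None of the 3 was found in the morphine map, which had a boundary of score 3.12 in the same bin and no anchor within 40 kb of it. The boundary bin thus stood in both lists and its loops in 1.

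Long loops also converged on the first boundary of chromosome 9, at 2880001 to 2920000, where the morphine map had 4 anchors within 40 kb. A loop from 560001 to 570000 reached 2910001 to 2920000 over 2350 kb with 153 contacts (87.7-fold, 74.3 to 102.7) and was found in both maps. Another, with 23 contacts, joined 340001 to 350000 with 2900001 to 2910000. A further 2 loops, of 2560 and 2510 kb, crossed the boundary, from 420001 and from 520001, to anchors at 2980001 and 3030001. On chromosome 16 the morphine boundary at 16120001 to 16160000 (score 1.32) had 4 anchors of loops that spanned up to 240 kb, and 2 of these anchors belonged to loops of the authors' morphine-side differential list.

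Loops seldom passed over a strong boundary, and passed over weaker ones about as seldom. A loop was counted as crossing when its anchors lay wholly on opposite sides of the boundary bin. Of 301 strong saline boundaries 42 were crossed (14.0%, 10.2 to 18.4), and of 267 strong morphine boundaries 59 were (22.1%, 17.3 to 27.6), where 15.2% and 23.1% of all boundaries were. The difference of strong from weaker was -1.62 points (-5.89 to 3.27) and -1.25 points (-6.56 to 4.67). Per boundary there were 0.166 and 0.352 crossing loops, and the ratios of strong to weaker were 0.866 (0.620 to 1.19) and 1.06 (0.830 to 1.33). The morphine map had 0.295 crossing loops each at scores of 1.0 to 1.5, 0.453 at 1.5 to 2.0 and 0.463 at 2.0 or more. The saline map had 0.156, 0.200 and 0.163 in these classes, and the intervals of the classes overlapped within each map. At the centres of the domains beside strong boundaries, by contrast, 38.9% of 506 bins in the saline map (34.7 to 43.3) and 46.4% of 455 bins in the morphine map (41.7 to 51.1) were crossed, with 0.636 and 0.890 loops each. Domains are stretches of frequent contact, and domains and loops came from the same contacts. This contrast and the dip around boundaries given next are therefore descriptions. No difference between strong and weaker boundaries in crossing loops was detectable at these numbers.

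The dip in crossing loops was broad. In the saline map 0.161 to 0.195 loops crossed a bin within 40 kb of an inner strong boundary, 0.291 and 0.339 at 200 kb on either side, and 0.469 and 0.610 at 400 kb. In the morphine map the means were 0.324 to 0.371 within 40 kb and 0.687 and 0.873 at 400 kb. Weaker boundaries had a dip of like depth, to 0.194 and 0.329 at the boundary bin. Loop ends were sorted by side. Within 240 kb before a strong boundary, 187 of 310 anchors in the saline map were right ends of loops (60.3%, 54.6 to 65.8), and within 240 kb after it 211 of 333 were left ends (63.4%, 57.9 to 68.6). In the morphine map the shares were 57.4% of 451 and 58.9% of 440, and around weaker boundaries they lay between 57.0% and 61.5%. Anchors of 1 hub or 1 short loop are not independent, so these intervals are too narrow.

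**Figure D4:**
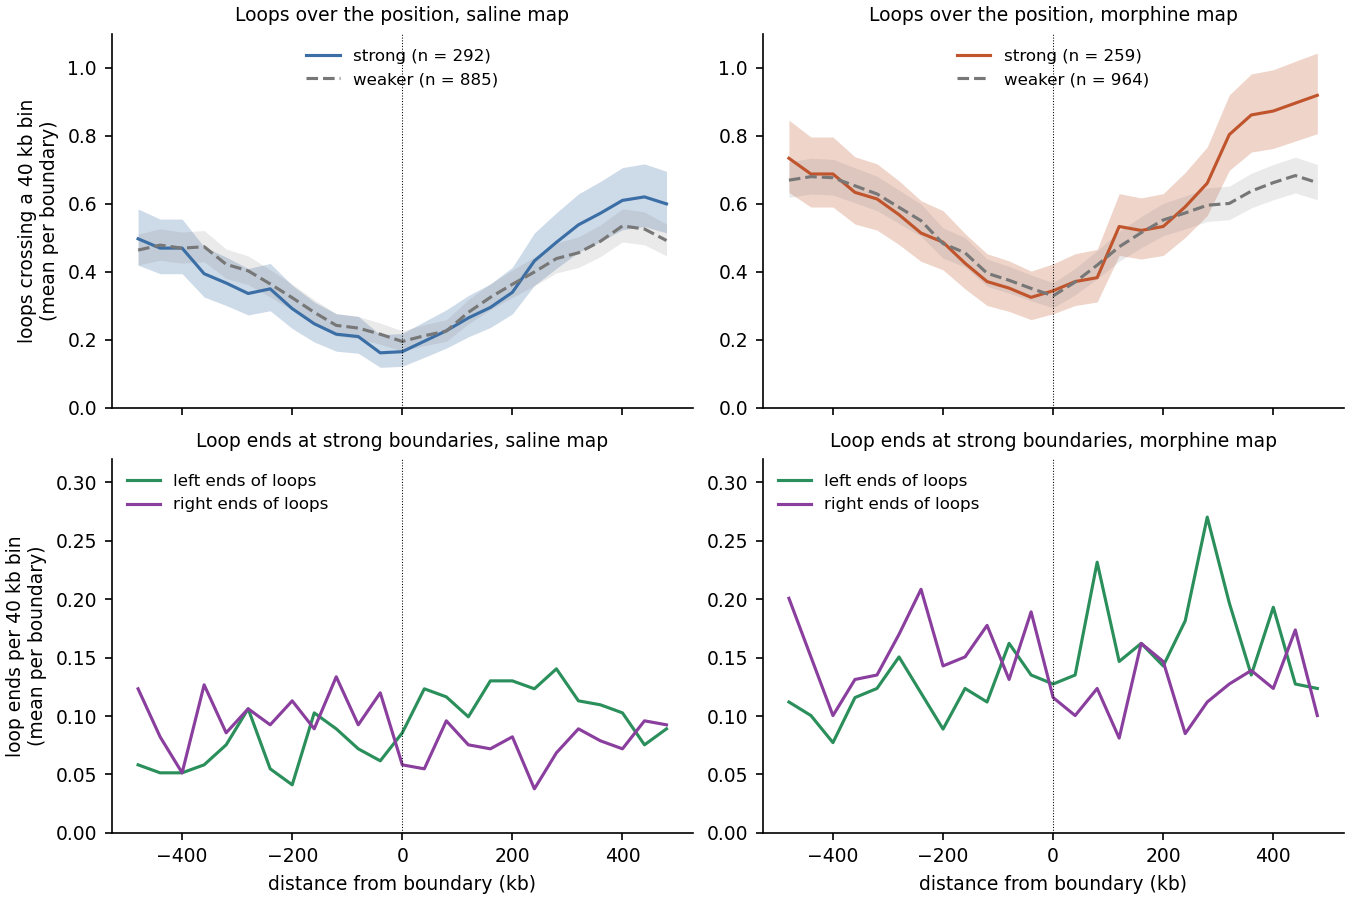
Top: mean number of loops crossing a 40 kb bin at each distance (kb) from inner boundaries, with 95% exact Poisson bands, for strong boundaries (solid) and weaker ones (dashed) of each map. Bottom: mean number of left and right ends of loops per 40 kb bin around strong boundaries. Crossing falls to 0.164 in the saline and 0.344 in the morphine map at the strong boundary bin, and within 240 kb right ends make up 60.3% of saline anchors before the boundary and left ends 63.4% after it.

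Loops that crossed strong boundaries were longer and had fewer contacts than all loops, as did those that crossed weaker boundaries. A crossing loop must have both anchors outside the 40 kb bin, so the rule itself favours long loops. The greater span is therefore no separate finding. The 50 crossing loops of the saline map had a median span of 225 kb (195 to 350), against 140 kb for all loops, a median of 16.5 contacts, against 19, and a median enrichment over the donut background of 7.66-fold (5.26 to 14.2), against 4.65-fold. The 91 of the morphine map spanned a median of 315 kb (260 to 435), with 18 contacts, against 24, and 7.30-fold enrichment (5.64 to 8.62), against 3.83-fold. The part of span in the contacts and in the enrichment was not tested. In the other map 34 of the 50 saline loops were found (68.0%, 53.3 to 80.5) and 31 of the 91 morphine loops (34.1%, 24.4 to 44.8), where 62.4% and 40.8% of all loops were. Loops that crossed weaker boundaries alone had median spans of 290 kb (260 to 330) in the saline and 280 kb (245 to 310) in the morphine map, with 16 and 18 contacts and enrichments of 6.50-fold (5.94 to 7.13) and 5.27-fold (4.85 to 5.72). Of these loops 68.8% and 38.1% were found in the other map.

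The most crossed strong boundary lay on chromosome 3, at 50840001 to 50880000 in the morphine map (score 1.72), with 7 crossing loops. They spanned from 850 to 3610 kb and had 11 to 23 contacts each. Of the 7, 5 ended in or beside 1 anchor region, at 51460001 to 51470000, and 1 was found in the saline map. A saline boundary of score 2.14 lay in the bin before it, and 1 of its loops crossed the morphine bin. The neighbouring boundary at 48960001 to 49000000 (score 2.45, with 2.22 for saline) was crossed by 4 morphine loops, 3 of which also crossed 50840001, and by no saline loop. On chromosome 19 the boundary at 23160001 to 23200000 (score 2.17) was crossed by 3 morphine loops, 1 of which, of 635 kb and with 28 contacts (47.1-fold, 31.3 to 68.0), was found in both maps. No strong saline boundary was crossed by more than 2 loops. Besides the chromosome 10 bin, the first of these were 29520001 on chromosome 20 (score 1.80) and 60120001 on chromosome 7 (score 1.51), with crossing loops of 125 to 445 kb.

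Loops anchored at strong boundaries resembled those anchored at weaker ones. The 94 saline loops with an anchor within 40 kb of a strong boundary had a median enrichment of 5.97-fold (5.00 to 6.98) and those anchored at weaker boundaries alone 5.30-fold (4.83 to 5.76). The 129 morphine loops had 4.31-fold (3.96 to 4.72) and those at weaker boundaries alone 4.37-fold (4.06 to 4.66). Over all saline loops the median was lower, at 4.65-fold (4.57 to 4.74). The median over all morphine loops, given above, was also lower than both morphine values. Median spans were 140 and 120 kb at strong and 150 kb at weaker boundaries of both maps, and the intervals overlapped throughout. Loops that joined both ends of a domain were rare, at 2 of all 1198 saline domains (0.167%) and 3 of all 1244 morphine domains (0.241%). Both saline domains lay on chromosome 2 and had a strong end, while the 3 morphine domains had none. The saline domains are the domain of 1.48 Mb named above and one of 3.52 Mb from 175560001 to 179080000, both of whose ends were strong. None of 71 morphine domains with both ends strong was so joined, which allows a share of up to 4.23% if the limit is set at 3 counts and 5.06% by the exact interval, for counting error only.

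Few loops of the authors' deposited differential lists lay at strong boundaries, as was the case for all loops. In the saline map 3 of 301 strong boundaries had an anchor of a saline-side differential loop within 40 kb (0.997%, 0.206 to 2.88), and in the morphine map 5 of 267 had one of a morphine-side loop (1.87%, 0.611 to 4.32), where 0.656% and 2.45% of all boundaries did. By loops, 3 of 203 saline-side loops were anchored there (1.48%, against 1.71% of all saline loops), and 7 of 597 morphine-side loops were (1.17%, against 1.53% of all morphine loops). Crossing of a strong boundary was found for 7 of the 597 morphine-side loops (1.17%, 0.473 to 2.40) and for 0 of the 203 saline-side loops, which allows a share of up to 1.48% if the limit is set at 3 counts and 1.80% by the exact interval. Of all loops, 1.08% of those in the morphine list crossed a strong boundary, as did 0.908% of those in the saline list. The criterion behind the differential lists was not stated in the labels or headers.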

How the data were processed

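Hi-C libraries of 2 groups were represented by 1 domain list, 1 full and 1 differential loop list each, taken as pooled over the group because the file names give no library. The authors' deposited domain lists hold domains in 40 kb bins and a strength score whose scale is not stated; both domains at an inner boundary carry the same score. Per the file headers, the loop lists hold observed counts of contacts (not normalized), the expected signal from 4 local backgrounds and 1 FDR (a q-value) for each, with anchors of 5 or 10 kb. The submitters' processing notes name hg19, although the files hold rhesus chromosomes; the aligner, loop caller and domain caller are not given in the sources used here. Coordinates are those of the files, counted from 1, without a build.

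The position of a boundary is the midpoint of the bin between adjacent domains, or of the bin outside the outermost domain. Anchor windows reached 40 kb from that midpoint to the anchor midpoint. Loops of the maps were matched when both anchors overlapped after extension by 10 kb. Enrichment is observed over donut-expected contacts. No p-values were computed. The members, and the group of chromosomes 10, 16, 19 and 20, were chosen with earlier results of these data known. Boundaries were named by rule: the 5 strongest of each map, the 5 strongest unmatched, the 3 largest rises and 3 largest falls of the score, and the 3 with the most anchors and 3 with the most crossing loops in each map. Library totals were not used here, so depth per sample is unknown. Python 3.11.15, numpy 2.4.6, pandas 2.3.3 and scipy 1.17.1 were used, and the counting was tested on simulated data. Alternatives were other thresholds, tolerances, windows, loop filters and chromosome sets.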

Additional observations from a re-analysis of the deposited data

How the results depend on the processing

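Of 121 values recomputed under 12 alternatives, 90 stayed within the interval of the reported value (or, for the number of strong boundaries, within 1.5 times of it), 31 moved outside it and 0 changed sign. An alternative that took the lower of the adjoining scores could not move a value, because both domains at an inner boundary carry the same score. Its values are counted among the 90. Thresholds of 0.9 and 1.1, leaving out the outermost boundaries, and an equal number of strong boundaries in both maps (added after the data were seen) moved none of them.

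With a matching tolerance of 20 kb, 36.5% of strong saline and 36.0% of strong morphine boundaries matched, and 30.6% and 34.5% were strong in both; at 80 kb the shares were 87.0% and 88.0%, and 69.1% and 77.9%. Shares with an anchor were 11.6% (saline) and 19.9% (morphine) in windows of 20 kb and 40.9% and 51.7% in windows of 80 kb, with 0.150, 0.255, 0.694 and 1.11 anchors per boundary. These follow from the width of the window.

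With loops whose FDR values were all at or under 0.1, anchors per strong boundary were 0.249 in the saline and 0.363 in the morphine map, the morphine share with an anchor was 24.3%, morphine crossing loops were 0.277 per boundary, and enrichment was 7.10-fold and 5.03-fold. With 10 kb anchors alone, the saline values were 16.9%, 0.219 anchors and 0.120 crossing loops, and the morphine values 19.5%, 0.251 anchors, 14.2% crossed and 0.213 crossing loops. The cause of these moves was not tested, beyond the smaller number of loops that lowers the counts. Without chromosomes 10, 16, 19 and 20, morphine anchors were 0.432 and crossing loops 0.262 per boundary.

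No paired analysis was possible because the files hold no values of single libraries, and leaving out a replicate was not run for the same reason. The depth of the libraries, the spread between monkeys and the scale of the score limit every comparison between the maps.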
